A study of Homo sapiens with 12 samples.

Results

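The nuclear genes for subunits of mitochondrial complexes I and IV were examined in side population (SP) and non-SP cells of A549, a human lung adenocarcinoma line. Members were the protein-coding genes with a probe set assigned to a single gene and a symbol starting NDUFA, NDUFB, NDUFC, NDUFS, NDUFV, COX4I, COX5, COX6, COX7 or COX8, without the NDUFAF assembly factors. The choice by name used no measured value and gave 50 of 19775 genes, with 90 probe sets. Each gene was represented by its probe set of highest mean. Of the 50 members, 47 passed a filter on dim probe sets, as did 14649 of all genes, and COX7A1, COX7B2 and COX8C did not. NDUFS5, NDUFS8 and NDUFC2 had only probe sets assigned to several genes and are not analysed here.

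Side population cells export the DNA dye Hoechst and appear weakly stained in the sorter, and non-SP cells are those that keep it. The 12 arrays formed 4 groups of 3 replicates: SP cells and non-SP cells from cultures given a monoclonal antibody labelled as anti-mouse EpCAM, at 100 µg/ml for 48 h, and SP cells and non-SP cells from untreated cultures. All cells were stained with Hoechst at 5 µg/ml for 90 min before sorting. The labels call the replicates biological. Each SP array was set against the non-SP array that shares its treatment and number, giving 6 pairs, although no label ties the arrays of a pair to one sort.

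Complex I takes electrons from NADH and passes them to ubiquinone. Complex IV, cytochrome c oxidase, passes electrons from cytochrome c to oxygen, and both pump protons across the inner mitochondrial membrane to drive ATP synthesis by complex V. Both complexes combine subunits encoded in mitochondrial DNA with a larger number encoded in the nucleus, and the nuclear genes are known targets of the factors NRF1, GABP (an ETS factor) and YY1.

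The promoters of 4 members that the results turn on show what such sites look like: the core subunit genes NDUFS3 and NDUFS7, which had the lowest unadjusted p among the members, and COX4I1 and NDUFB4, for which a second probe set gave a different answer. Each run is the sense strand in RefSeq's GRCh38.p14, from 250 bases before the annotated start to 50 bases after it, written 5′ to 3′. NDUFS3 lies at chr11:47578824-47579123, NDUFS7 at chr19:1383657-1383956, COX4I1 at chr16:85799445-85799744 and NDUFB4 at chr3:120596086-120596385, all on the plus strand. Capitals mark the letters GCATGCGC (NRF1), CCGGAAG (ETS) and AAGATGGCG (YY1), found on either strand.
NDUFS3 promoter: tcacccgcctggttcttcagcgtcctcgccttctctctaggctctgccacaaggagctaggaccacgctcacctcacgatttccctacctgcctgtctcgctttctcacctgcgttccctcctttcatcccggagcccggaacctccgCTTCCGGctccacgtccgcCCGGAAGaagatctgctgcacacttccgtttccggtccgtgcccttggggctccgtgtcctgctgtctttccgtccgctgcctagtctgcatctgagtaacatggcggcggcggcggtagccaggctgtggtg
NDUFS7 promoter: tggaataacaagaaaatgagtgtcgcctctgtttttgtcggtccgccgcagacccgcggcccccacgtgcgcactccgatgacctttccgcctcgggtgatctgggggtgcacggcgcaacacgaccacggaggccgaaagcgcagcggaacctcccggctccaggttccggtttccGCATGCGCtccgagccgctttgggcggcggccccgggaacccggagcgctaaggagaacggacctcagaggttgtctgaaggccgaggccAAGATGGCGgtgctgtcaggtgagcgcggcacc
COX4I1 promoter: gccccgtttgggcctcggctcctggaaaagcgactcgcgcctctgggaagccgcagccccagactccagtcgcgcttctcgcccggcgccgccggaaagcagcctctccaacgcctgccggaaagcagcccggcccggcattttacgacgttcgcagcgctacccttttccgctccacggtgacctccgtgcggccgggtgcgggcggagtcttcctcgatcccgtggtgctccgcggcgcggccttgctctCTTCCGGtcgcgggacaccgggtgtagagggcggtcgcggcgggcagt
NDUFB4 promoter: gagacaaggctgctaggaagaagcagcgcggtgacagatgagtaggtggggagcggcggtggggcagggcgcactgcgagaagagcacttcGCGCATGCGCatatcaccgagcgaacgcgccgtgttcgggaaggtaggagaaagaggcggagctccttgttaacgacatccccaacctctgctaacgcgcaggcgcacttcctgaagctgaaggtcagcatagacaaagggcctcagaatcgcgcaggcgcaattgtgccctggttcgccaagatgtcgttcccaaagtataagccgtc

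NDUFS3 held 2 ETS matches, NDUFS7 held 1 YY1 and 1 NRF1 match, COX4I1 held 1 ETS match and NDUFB4 held 2 NRF1 matches, which overlap on opposite strands. RefSeq promoters were at hand for 45 of the members. The NRF1 letters occurred in 7 of them (15.6%), against 4.26% of 15843 promoters of protein-coding genes. The ETS letters occurred in 10 (22.2%), against 14.2%, and the YY1 letters in 5 (11.1%), against 2.74%. Any of the 3 motifs occurred in 18 members (40.0%), against 19.5% of all promoters. A match is a run of letters and was not tested as a binding site.

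Values are RMA log2 expression values. They ranged from 2.43 to 14.95 over the arrays, and array medians lay between 5.58 and 6.24. All 5 epithelial markers examined passed the filter, as did 2 of 3 blood cell markers (CD3E and HBB, not PTPRC), 1 of 2 endothelial markers (PECAM1, not CDH5) and 2 of 3 fibroblast markers (COL1A2 and DCN, not LUM). Their means over the 12 arrays were 6.71 for CD3E, 7.47 for HBB, 6.71 for PECAM1, 5.79 for COL1A2 and 6.14 for DCN, against a filter at 5.39, and their part in the results was not tested. In bulk RNA of this kind, fewer cells that express a gene and less RNA per cell cannot be told apart.

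The first question was whether the subunit genes differ between SP and non-SP cells over both treatments. No member passed: 0 of 47 had an adjusted p under 0.05 in limma, with Benjamini-Hochberg adjustment over all genes, where 2.47% of all genes were called (1.02% higher and 1.45% lower in SP cells). At an unadjusted p under 0.05, limma counted 2 members, NDUFS3 and NDUFS7, and 2377 genes in all. The estimates were small and 36 of 47 (76.6%) were lower in SP cells, against 47.6% of all genes, and 11 were higher, against 52.4%. Their median was -0.044 on the log2 scale, against 0.0056 over all genes tested and 0.018 over the 3814 genes with a mean above 10, to which 43 of the members belong. The choice of members was made with these results known, and no test was made of the shift.

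Under the pairing used, the 95% intervals limit the difference that could have been missed by the probe set used for each gene. They do not cover its other sets: NDUFB4 lay inside ±0.25 by the set used, while its set 228940_at gave -0.43 ± 0.083. For 42 of 47 members the interval of SP minus non-SP lay inside ±0.25, a change of 1.19-fold, and for all 47 it lay inside ±0.5, or 1.41-fold. NDUFB10, NDUFS3, NDUFS7, NDUFA10 and COX6B2 were the members that reached past ±0.25. The intervals were 0.110 to 0.259 wide on each side, with a median of 0.120. In anti-EpCAM pairs alone 20 of 47 intervals lay inside ±0.25, and in untreated pairs alone 37 of 47.

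**Figure D1:**
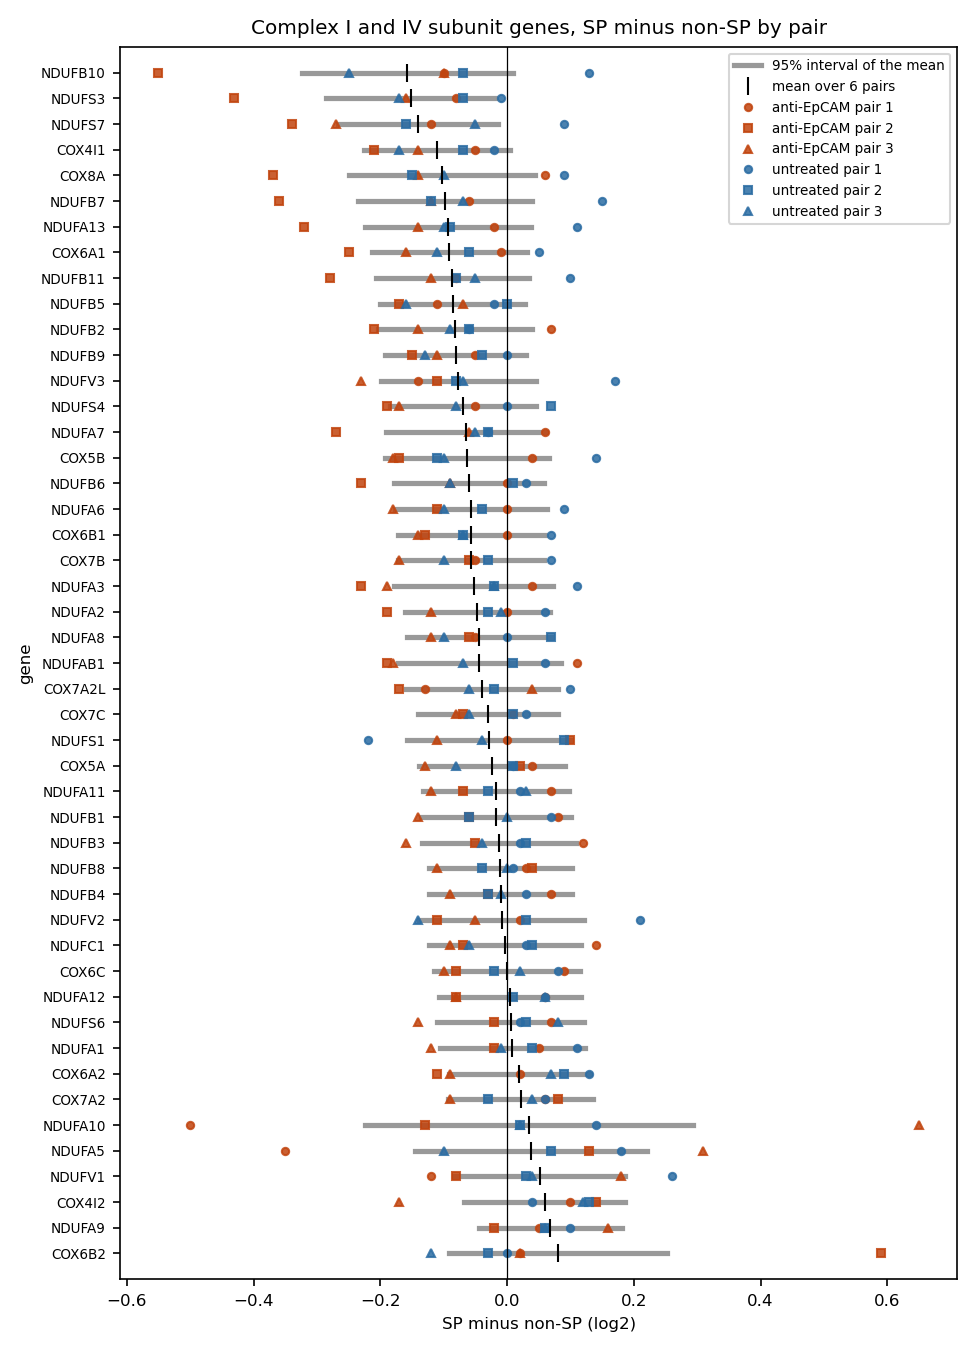
SP minus non-SP (log2, horizontal axis) for each of the 47 members (rows) in the 3 anti-EpCAM pairs and the 3 untreated pairs (points), with the mean over 6 pairs (tick) and its 95% interval (grey bar). Most members sit a little below 0, and single pairs of NDUFA10, NDUFB10 and COX6B2 lie farthest out, at 0.65, -0.55 and 0.59.

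The core subunits of complex I carry the flavin and the iron-sulfur clusters along which electrons move. NDUFS3, a core subunit of the arm that projects into the matrix (probe set 201740_at), read 11.31, 11.27 and 11.64 in anti-EpCAM SP cells, against 11.39, 11.70 and 11.79 in anti-EpCAM non-SP cells. In untreated cultures it read 11.28, 11.42 and 11.35 in SP cells, against 11.30, 11.49 and 11.52 in non-SP cells. The SP array was the lower of every pair, although the ranges of SP and non-SP cells overlapped in both treatments. The averaged difference was -0.15 ± 0.06 (SE, n = 6 pairs) and did not pass (adjusted p = 0.244), the smallest adjusted p of any member. It rests in part on anti-EpCAM pair 2, at -0.43, where the next lowest pair had -0.17.

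NDUFS7, which holds the last iron-sulfur cluster before ubiquinone (211752_s_at), read 10.10, 10.31 and 10.40 in anti-EpCAM SP cells, against 10.21, 10.66 and 10.67 in anti-EpCAM non-SP cells. The values were 10.24, 10.32 and 10.43 in untreated SP cells, against 10.15, 10.48 and 10.48 in untreated non-SP cells. SP cells were lower in 5 of 6 pairs, untreated pair 1 being the exception, and the groups overlapped. The averaged difference was -0.14 ± 0.06 (adjusted p = 0.254). In anti-EpCAM pairs it was -0.24 ± 0.08, which had the smallest adjusted p of the members there (0.314).

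The other 3 core subunits with a usable probe set had estimates near 0. NDUFS1, the largest core subunit, had -0.029 ± 0.059 with SP cells higher in 2 of 6 pairs. NDUFV1, which binds NADH and the flavin, had 0.052 ± 0.061 with SP cells higher in 4 of 6 pairs. NDUFV2, its partner in the NADH-binding module, had -0.0084 ± 0.059 with 3 pairs of each sign. Of the 5 core subunits, 4 had a lower estimate, 0 passed and the median was -0.029.

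The accessory subunits surround the core and serve in assembly and stability. Of 28 past the filter, 22 had a lower estimate in SP cells, 0 passed and the median was -0.045. All 11 genes of the NDUFB series, whose products sit in the membrane arm, had a lower estimate, between -0.16 and -0.010, with a median of -0.081. The 13 genes of the NDUFA series were more mixed, with 8 lower and a median of -0.044.

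NDUFB10 (223112_s_at) had the lowest estimate of all members. It read 12.30, 11.93 and 12.44 in anti-EpCAM SP cells, against 12.40, 12.48 and 12.55 in anti-EpCAM non-SP cells, and 12.25, 12.36 and 12.15 in untreated SP cells, against 12.12, 12.43 and 12.40 in untreated non-SP cells. The SP array of anti-EpCAM pair 2 was the lowest of the 12, and the groups overlapped in both treatments. The difference was -0.16 ± 0.08 (adjusted p = 0.337), lower in 5 of 6 pairs. The other probe set of NDUFB10 past the filter, 228301_x_at, averaged -0.02 over the pairs.

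At the other end NDUFA9, a subunit near the ubiquinone site, was higher in SP cells in 5 of 6 pairs, by 0.069 ± 0.051 (adjusted p = 0.552). NDUFA5 had 0.038 ± 0.082 and NDUFA10 had 0.034 ± 0.117, the widest error of the members. NDUFA10 (217860_at) read 10.93, 11.69 and 11.63 in anti-EpCAM SP cells, against 11.43, 11.82 and 10.99 in anti-EpCAM non-SP cells. In untreated cultures the values were 11.30, 11.03 and 11.71 in SP cells, against 11.16, 11.01 and 11.69 in non-SP cells. The pair differences were thus -0.50, -0.13 and 0.65 with the antibody and 0.14, 0.02 and 0.02 without it.

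Anti-EpCAM pairs 1 and 3 also differed in the RNA controls of the array, in opposite directions. The ACTB control, its probe set at the 3′ end minus that at the 5′ end, was 1.86 higher in SP than in non-SP cells in pair 1, while the difference was -2.09 in pair 3. In pair 2 it was 0.27 higher, and in the untreated pairs the difference lay between -0.36 and -0.25. The GAPDH control differed by 0.54, 0.30 and -0.38 in the anti-EpCAM pairs and by -0.11, 0.01 and 0.11 in the untreated pairs. With the ACTB difference as a covariate, an alternative chosen after seeing the data, the NDUFA10 estimate had an SE of 0.049, and with the GAPDH difference an SE of 0.050. NDUFA5 followed the same order, with -0.35, 0.13 and 0.31 in the anti-EpCAM pairs, and its SE was 0.059 with either covariate. What part RNA quality has in these values was not tested further.

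Complex IV has several subunits with alternative forms. COX4I1, the regulatory subunit found in most tissues (202698_x_at), read 13.14, 13.17 and 13.26 in anti-EpCAM SP cells, against 13.19, 13.38 and 13.40 in anti-EpCAM non-SP cells. It read 13.15, 13.16 and 13.13 in untreated SP cells, against 13.17, 13.24 and 13.30 in untreated non-SP cells. All 3 untreated SP arrays were below all 3 untreated non-SP arrays, while the anti-EpCAM groups overlapped. The averaged difference was -0.11 ± 0.05 (adjusted p = 0.328), lower in every pair. COX4I2, the form induced by low oxygen in lung, had 0.059 ± 0.057 (adjusted p = 0.664), higher in 5 of 6 pairs.

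The remaining complex IV pairs of forms showed no call either. COX8A had -0.10 ± 0.07 (adjusted p = 0.488), and its testis-type relative COX8C was below the filter at a mean of 3.19. COX6A1 had -0.091 ± 0.055, and the heart and muscle form COX6A2 had 0.020 ± 0.050. COX6B1 had -0.056 ± 0.052, whereas the testis form COX6B2 had 0.080 ± 0.078, the highest estimate of any member.

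COX6B2 (1553367_a_at) read 5.65, 6.44 and 6.23 in anti-EpCAM SP cells, against 5.63, 5.84 and 6.22 in anti-EpCAM non-SP cells. In untreated cultures it read 5.25, 5.70 and 6.28 in SP cells, against 5.25, 5.72 and 6.40 in non-SP cells. Anti-EpCAM pair 2 alone gave 0.59, and the other 5 pairs lay between -0.12 and 0.02. Without that pair the estimate was -0.016 (adjusted p = 0.951). COX5A had -0.024 ± 0.052 and COX5B had -0.063 ± 0.058, both single forms in mammals.

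COX7A2 had 0.021 ± 0.051, its relative COX7A2L, which acts in joining complexes III and IV, had -0.039 ± 0.054, and the muscle form COX7A1 was below the filter at a mean of 4.81. COX7B had -0.056 ± 0.052, and COX7B2 was below the filter at 4.34. COX6C and COX7C, both single forms, had estimates of -0.00005 and -0.030. Over the 14 complex IV genes past the filter, 10 had a lower estimate, 0 passed and the median was -0.035. COXFA4 and COXFA4L2, formerly named NDUFA4 and NDUFA4L2 and now placed with complex IV, are not members by symbol. They had -0.039 ± 0.054 and -0.038 ± 0.051, and counting them as members, an alternative chosen after seeing the data, gave 0 called and a median of -0.039.

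**Figure D2:**
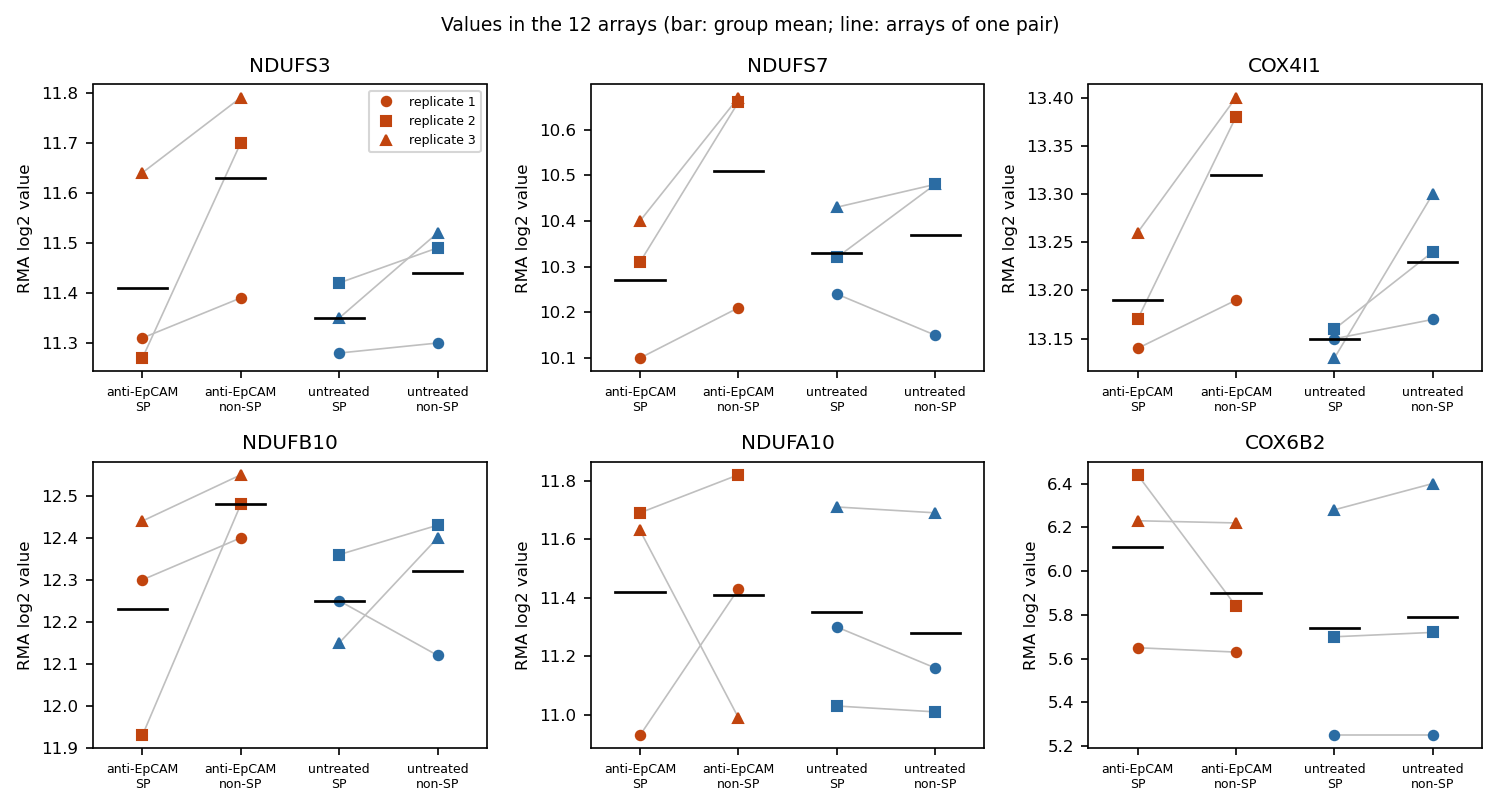
RMA log2 level (vertical axis) of NDUFS3, NDUFS7, COX4I1, NDUFB10, NDUFA10 and COX6B2 on each array, in anti-EpCAM SP, anti-EpCAM non-SP, untreated SP and untreated non-SP cells (points, 3 arrays a group; bars are group means and lines join the arrays of a pair). SP and non-SP arrays overlap for NDUFS3, NDUFS7 and NDUFB10 in both treatments.

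Members were next followed pair by pair. The median SP minus non-SP difference over the 47 members was 0.0076, -0.11 and -0.12 in anti-EpCAM pairs 1, 2 and 3, and 0.061, -0.025 and -0.065 in untreated pairs 1, 2 and 3. The median over all genes tested was 0.013, 0.016 and -0.044 in the same anti-EpCAM pairs and 0.063, -0.0048 and 0.0034 in the untreated pairs. In number of members, 20, 40 and 41 of 47 (42.6%, 85.1% and 87.2%) were lower in SP cells in the anti-EpCAM pairs. Of all genes tested, 45.7%, 46.3% and 59.1% were lower there. In the untreated pairs 8, 27 and 35 members (17%, 57.4% and 74.5%) were lower, beside 32.1%, 51.3% and 48% of all genes. The pairs thus differed in direction: in untreated pair 1 the members shifted up by about as much as all genes, and in anti-EpCAM pairs 2 and 3 most members were lower.

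**Figure D3:**
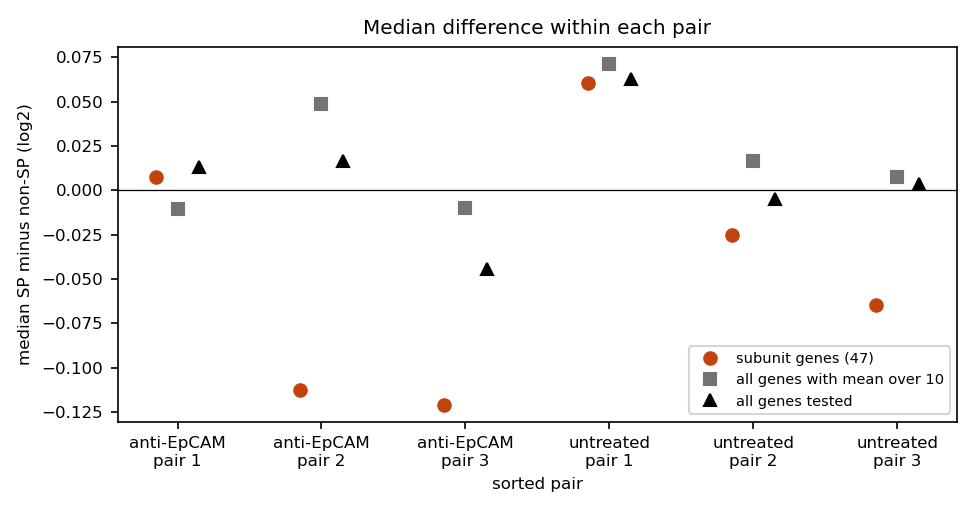
Median SP minus non-SP difference (log2, vertical axis) over the 47 members, the 3814 genes with a mean above 10 and all 14649 genes tested, in each of the 6 pairs. The members' median is below that of all genes in each of the 6 pairs, by least in untreated pair 1 (0.061 against 0.063) and by most in anti-EpCAM pair 2 (-0.11 against 0.016). Against the genes with a mean above 10, the members' median is higher in anti-EpCAM pair 1 (0.0076 against -0.0107) and lower in the other pairs.

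The pair differences of the members ran together. The mean correlation between the pair differences of any 2 members was 0.408, against 0.0505 over all genes and 0.0666 over genes with a mean above 10. These values describe 6 points that share arrays and normalisation sets, and they carry no test. COX6B1 (r = 0.98), NDUFA6 (0.97) and COX6A1 (0.96) followed the median of the other members most closely. COX6B2 (r = -0.45), NDUFS1 (-0.43), NDUFA10 (-0.42) and NDUFA5 (-0.38) ran the other way. The SD of the pair differences was 0.096 for the median member, against 0.12 for the median gene with a mean above 10 and 0.15 for the median of all genes.

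Direction was rarely the same in every pair. Over the 6 pairs COX4I1, NDUFB9 and NDUFS3 were lower in SP cells in each, 3 of 47 members (6.38%), against 4.68% of all genes. In untreated pair 1 their differences were close to nil, at -0.02, -0.00 and -0.01 in that order. No member was higher in every pair, against 6.03% of all genes.

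By antibody, SP minus non-SP was asked in each culture condition. In anti-EpCAM cultures 0 of 47 members passed in limma, where 0.246% of all genes were called (0.0546% higher and 0.191% lower). At an unadjusted p under 0.05 limma counted 3 members there, NDUFS7, NDUFS3 and NDUFB10, and 1536 genes. Of the members, 41 (87.2%) had a lower estimate, against 51.3% of all genes, and 6 a higher one, against 48.7%. The medians were -0.086 for members and -0.0040 for all genes. There 15 members were lower in all 3 pairs (31.9%), against 13.7% of all genes, and COX6B2 was higher in all 3 (2.13%), against 11.9%.

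In untreated cultures 0 members passed, where 0.0956% of all genes were called (0.0273% higher and 0.0683% lower), and 0 members but 1301 genes had an unadjusted p under 0.05 in limma. The smallest adjusted p was 0.772, for COX6A2, a dim gene at a mean level of 6.04. Estimates were lower for 27 members (57.4%), against 42.7% of all genes, and higher for 20, against 57.3%. The medians were -0.0077 for members and 0.018 for all genes. After quantile normalisation of all 12 arrays 35 members were lower and 12 higher, with a median of -0.024. Members lower in all 3 untreated pairs numbered 5 (10.6%), against 12.5% of all genes. Another 7 were higher in all 3 (14.9%), against 22.1%, among them NDUFV1, NDUFA9, NDUFA10, COX4I2 and COX6A2. The sign of the untreated median depended on single pairs, as it was 0.0089 without untreated pair 2 and 0.018 without untreated pair 3.

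Whether the fraction difference depended on the antibody was tested by the interaction. It called 0 members in limma, where 0% of all genes were called, with 0 members and 249 genes at an unadjusted p under 0.05. The interaction estimate was below 0 for 45 of 47 members (95.7%), against 61.5% of all genes, and above 0 for 2, against 38.5%. The medians were -0.071 for members and -0.026 for all genes. All 28 accessory subunits of complex I were among the 45. After quantile normalisation of all 12 arrays the count was 38 of 47. NDUFS7 had the lowest interaction estimate at -0.20 ± 0.11, and COX6B2 (0.26 ± 0.16) and NDUFS1 (0.052 ± 0.117) were the members above 0. The fraction difference was not shown to depend on the antibody for any of them (adjusted p = 1.00 for each in limma). Since each gene's interaction reads the same 6 pairs, the 45 estimates are not independent of one another. The direction was not particular to the members. Interaction estimates were also below 0 for 3 of 3 complex II, 7 of 7 complex III and 17 of 18 complex V genes. The same held for 6 of 6 genes encoded in mitochondrial DNA, 10 of 14 complex I assembly factors and 18 of 23 complex IV assembly factors.

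The antibody itself was compared over pair means, 3 anti-EpCAM against 3 untreated. No member passed in limma, where 0% of all genes were called, and 0 members but 57 genes had an unadjusted p under 0.05. Estimates were higher with the antibody for 35 of 47 members, against 79.5% of all genes, and lower for 12, against 20.5%. The medians were 0.045 for members and 0.091 for all genes. COX4I2, dim at a mean level of 6.475, had the highest estimate at 0.40 ± 0.24. NDUFV1 followed at 0.36 ± 0.29, and NDUFS1 had the lowest at -0.095 ± 0.146. Arrays of different pairs look normalised separately, so this comparison crosses normalisation sets. After quantile normalisation of all arrays the medians were -0.0022 for members and 0.012 for all genes, so no direction is given.

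The choice of probe set changed the answer for a few members. A suffix of _s_at marks a set that matches several transcripts and _x_at one with probes that also match other sequences. Of the 47 sets used, 21 ended in _s_at and 2 in _x_at. Another 30 sets of 19 of the genes passed the filter, 22 with the same sign as the set used and 8 with the opposite sign. Preferring sets without these endings changed the set of 12 members, and 2 of 47 members then passed as lower in SP cells, with 0 higher. With the same choice 2.65% of all genes were called, 1.64% lower and 1.01% higher.

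NDUFB4, an accessory subunit of the membrane arm, was the first. Its set 228940_at had differences of -0.66, -0.33 and -0.47 in the anti-EpCAM pairs and -0.28, -0.73 and -0.09 in the untreated pairs. The mean was -0.43 ± 0.083 (SE, n = 6 pairs; adjusted p = 0.0273), lower in SP cells in all 6 pairs. The set 218226_s_at of the same gene had differences between -0.09 and 0.07, with a mean of -0.01 (adjusted p = 0.949). The sets differed in brightness, with a mean level of 7.39 for 228940_at and 13.25 for 218226_s_at. In alternatives chosen after seeing the data, the call on 228940_at was lost without any 1 of the pairs other than untreated pair 3 (adjusted p from 0.0584 to 0.0827) and with the 12 arrays taken as independent (adjusted p = 1.00).

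COX4I1 was the second. Its set 213758_at had -0.48, -0.34 and -0.23 in the anti-EpCAM pairs and -0.13, -0.24 and -0.12 in the untreated pairs, a mean of -0.25 ± 0.056 (adjusted p = 0.0420), lower in all 6. The sets 202698_x_at, 200086_s_at and 227323_at of COX4I1 averaged -0.11, -0.09 and 0.03. Their mean levels were 13.22, 12.85 and 5.43, the last near the filter at 5.39, against 7.27 for 213758_at. In the same alternatives the call was lost without any 1 of the pairs other than anti-EpCAM pair 3 (adjusted p from 0.0760 to 0.145) and with independent arrays (adjusted p = 1.00). Which transcripts each set matches was not tested, as probe sequences were not used here. NDUFB8, of the membrane arm, had -0.01 by 201227_s_at, -0.12 by 201226_at and -0.13 by 214241_at, with 0 of these called.

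**Figure D4:**
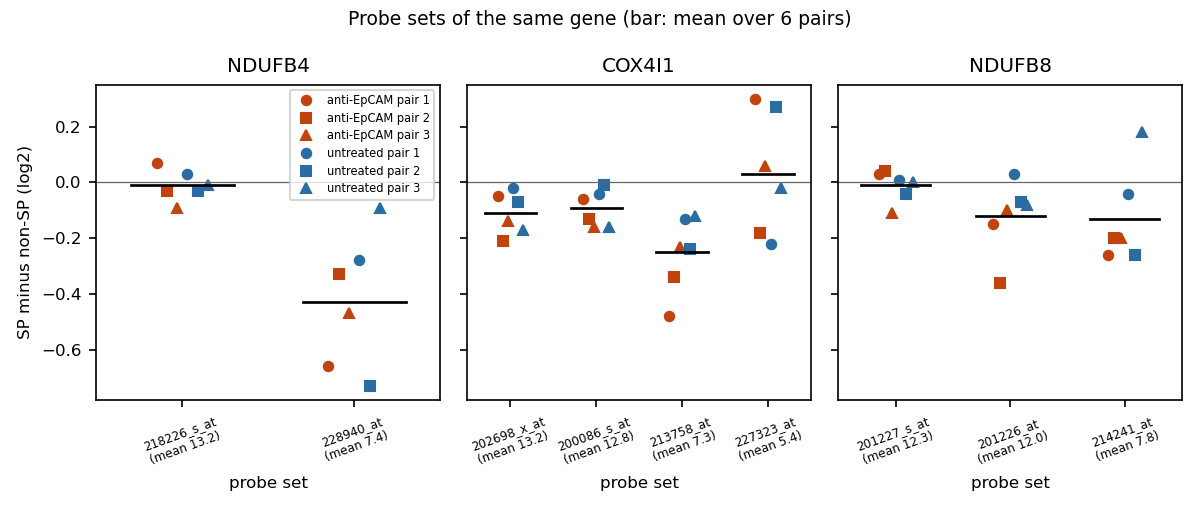
SP minus non-SP (log2, vertical axis) in each of the 6 pairs (points) and their mean (bars) for the probe sets of NDUFB4, COX4I1 and NDUFB8 that passed the filter. The sets 228940_at of NDUFB4 and 213758_at of COX4I1 lie below 0 in all 6 pairs, and the other sets of these genes have means nearer to 0.

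The other respiratory chain lists differed over the 6 pairs, with complexes III and V leaning lower as the members did. Complex II had 0 of 3 genes called and a median of 0.012, complex III 0 of 7 and -0.030, and complex V 0 of 18 and -0.029, against 0.0056 over all genes. Estimates were lower for 5 of 7 complex III genes (71.4%) and 14 of 18 complex V genes (77.8%), beside 76.6% of members. They were higher for 2 of 3 complex II genes. In anti-EpCAM cultures 6 of 7 complex III, 16 of 18 complex V and 2 of 3 complex II genes were lower, beside 41 of 47 members. CYCS, cytochrome c itself, had 0.0056 ± 0.0515. Complex I assembly factors had 0 of 14 called, 9 with a higher estimate and a median of 0.024.

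Among 23 complex IV assembly factors, 1 passed as lower and 0 as higher, where 1.45% of all genes were called lower and 1.02% higher, and the median was 0.00035. The one was COX17, the copper chaperone that supplies complex IV (1558346_at). It read 5.74, 6.45 and 6.87 in anti-EpCAM SP cells, against 6.89, 6.84 and 7.43 in anti-EpCAM non-SP cells, and 6.17, 6.71 and 7.21 in untreated SP cells, against 6.53, 7.14 and 7.31 in untreated non-SP cells. The averaged change of COX17 was -0.50 ± 0.09 (adjusted p = 0.0232), with the SP array the lower of each of the 6 pairs, although the groups overlapped. The call was lost without untreated pair 1 (adjusted p = 0.0672) or untreated pair 2 (adjusted p = 0.0643). With independent arrays it was also lost (adjusted p = 1.00). Its other probe set is shared with another gene and was not used. The call thus rests on 1558346_at alone, at a mean level of 6.77, and whether another set gives the same was not tested.

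Of 12 regulators of mitochondrial biogenesis, 1 passed as higher and 0 as lower, beside the same 1.02% and 1.45% of all genes, and the median was 0.031. TFB2M, which starts transcription of mitochondrial DNA (218605_at), had pair differences of 0.30, 0.45 and 0.48 with the antibody and 0.12, 0.21 and 0.22 without it. It rose by 0.30 ± 0.05 (adjusted p = 0.0190) in SP cells, higher in all 6 pairs. Its other sets past the filter averaged -0.02 and -0.19, and the mean of its sets gave 0.029 (adjusted p = 0.845). Those other sets had a mean level of 5.45 each, near the filter at 5.39, against 11.21 for 218605_at. With independent arrays the call was lost (adjusted p = 1.00), as it was without any 1 of the 3 untreated pairs or anti-EpCAM pair 2 (adjusted p from 0.0529 to 0.0919).

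None of the other regulators passed. YY1 (200047_s_at) had pair differences of -0.06, 0.21 and -0.06 with the antibody and 0.14, -0.01 and 0.04 without it. NRF1 had 0.22 ± 0.06 (adjusted p = 0.115), with a higher value in SP cells in all 6 pairs, though by a rounded 0.00 in anti-EpCAM pair 3. Its other sets past the filter averaged 0.30, 0.19 and 0.15, and these were not tested for a call. The coactivator gene PPARGC1A had -0.26 ± 0.11 (adjusted p = 0.273), lower in 5 of 6 pairs, and its relative PPARGC1B had 0.15 ± 0.10 (adjusted p = 0.503). GABPA, the DNA-binding subunit of GABP, had 0.029 ± 0.086, the nuclear receptor ESRRA had -0.040 ± 0.072, and TFAM, which packages mitochondrial DNA, had 0.033 ± 0.073. Other TFAM sets past the filter averaged -0.38 and -0.29, and the mean of its sets was -0.21 (adjusted p = 0.369).

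The partner subunits encoded in mitochondrial DNA had 0 of 6 genes called and a median of -0.031. ND6, a core subunit of complex I, had the widest values, with -0.46, 0.14 and 1.09 in the anti-EpCAM pairs and 0.44, 0.74 and 0.27 in the untreated pairs (0.37 ± 0.15, adjusted p = 0.266). All 6 genes were lower in SP cells in anti-EpCAM pair 1 and all 6 higher in anti-EpCAM pair 3, with medians of -0.36 and 0.11. These are the pairs in which the ACTB control differed by 1.86 and -2.09, and the part of RNA quality in these values was not tested.

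**Figure D5:**
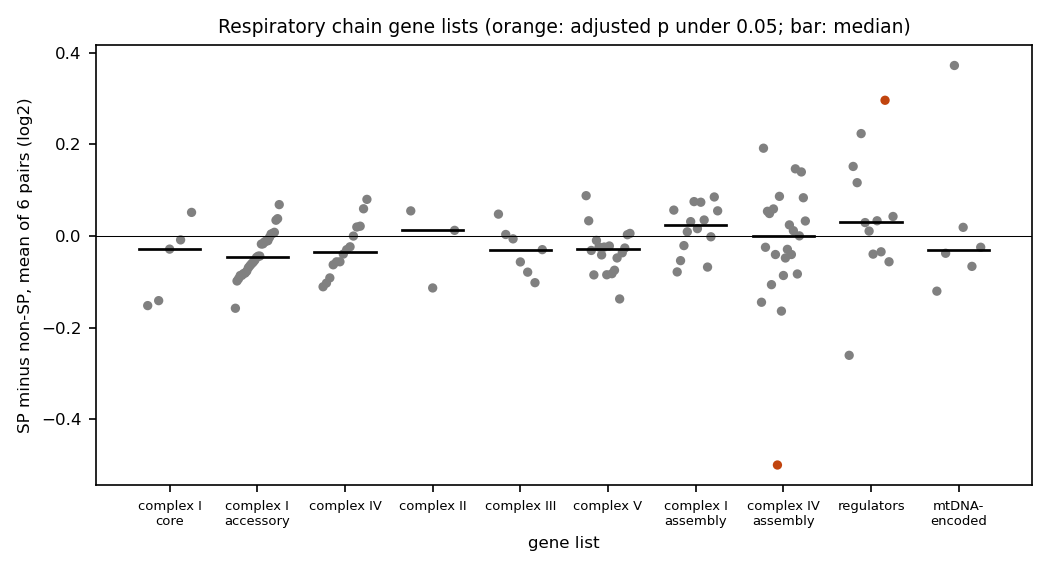
Mean SP minus non-SP difference over 6 pairs (log2, vertical axis) for each gene (points) of the complex I and IV members and the other respiratory chain lists, with the median of each list (bars). COX17 at -0.50 and TFB2M at 0.30 are the genes with an adjusted p under 0.05, and no member of complex I or IV is among them.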

How the data were processed

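The deposited values are log2 expression values per probe set of an Affymetrix array, made by the authors with RMA, per the submitters' processing notes; its version is not given in the sources used here. Of 54613 probe sets besides 62 controls, 41091 had 1 gene symbol, 1801 several and 11721 no entry or no symbol. Symbols were updated by gene ID. The filter kept means above the 40th percentile (5.39), and a gene's highest-mean probe set was used. In limma 3.58.1 (R 4.3.3, statmod 1.5.0), within-pair differences were fitted with a mean per treatment, and pair means for the antibody, with Benjamini-Hochberg adjustment over 14649 genes and a threshold of 0.05, on 4 residual degrees of freedom. The fits were tested on simulated data. The number of arrays limits the precision, and the pairs were taken as independent. SEs are moderated by limma, which draws each gene's variance toward a value shared by all genes. They thus do not measure the spread of a gene's own pairs alone. The SD of pair differences was 0.057 for NDUFB9 and 0.417 for NDUFA10, while the averaged SEs were 0.050 and 0.117. Tests and intervals use these SEs, with more degrees of freedom than the 4 residual ones.

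Same-treatment, same-number SP and non-SP arrays deviated together from their group means (r of 0.62 to 0.89). Across treatments, r was 0.71, -0.18 and 0.64 for numbers 1, 2 and 3 in SP cells and 0.73, -0.11 and 0.60 in non-SP cells. Numbers 1 and 3 deviated together and number 2 did not, and since pairing was taken only where every r was over 0.1, numbers were not paired across treatments. Sorted values differed by a mean of 0.0093 to 0.0213 within pairs, against 0.0461 to 0.524 between other arrays. A shared sort and shared normalisation cannot be told apart.

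Members and lists were chosen with earlier results of these data known. Named were members that passed, the 5 highest and 5 lowest averaged estimates, core subunits, alternative forms, passing list members (at most 4 a list) and fixed regulators. NDUFB9, NDUFA10, NDUFB4, NDUFB8, COX6C, COX7C, NDUFA6, NDUFA7, ND6 and YY1 were named after their values were seen. The NRF1 letters searched in promoters were set after a longer form had been counted. Alternatives covered pairing, normalisation, filter, probe set, variance model, RNA controls and left-out pairs.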

Additional observations from a re-analysis of the deposited data

Results flagged for a closer look

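In 4 of 47 members 1 of the 6 pairs stood apart from the other 5, by a gap to the nearest pair that took most of the range (Dixon's criterion). Chance gives about 1 in 20 where the 6 values come from 1 normal distribution. The pairs come from both treatments and the members share arrays, so 4 of 47 cannot be set against that rate. SP minus non-SP of COX6B2 was 0.59 in anti-EpCAM pair 2, and the next pair had 0.02. NDUFS3 had -0.43 in the same pair, and the next had -0.17. NDUFA7, an accessory subunit of complex I, had -0.27 there, and the next had -0.06. COX4I2 had -0.17 in anti-EpCAM pair 3, where the nearest of the other pairs had 0.04. COX4I2 was below 0 in that pair and above 0 in the other 5, and NDUFS3 was below 0 in all 6.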

How the results depend on the processing

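No member passed under any alternative in any comparison, except that 2 passed in the averaged comparison when probe sets without _s_at or _x_at were preferred (COX4I1 at -0.255, adjusted p = 0.0420, and NDUFB4). Averaged medians lay between -0.0584 and -0.0254 when 1 pair was left out. The antibody median was 0.0455, lay between -0.00604 and 0.113 when 1 pair was left out (0.113 without anti-EpCAM pair 1), and was 0.115 without anti-EpCAM pairs 1 and 3 together. With the replicate number as a block and with no replicate block, 0 members passed. Over all genes the averaged count of 362 was then 10 and 0, it was 0 with limma's trend and robust fit, and it lay between 72 and 430 with 1 pair left out and was 27 without anti-EpCAM pairs 1 and 3. The cause was not tested. Of 506 values of the 30 named genes under alternatives, 474 kept direction and call, 15 lost a call and 1 gained one. Another 16 changed sign, 11 of them when 1 pair was left out. The 474 do not measure robustness. The ACTB and GAPDH covariates, for example, left the averaged estimates of the members as they were (NDUFA10 at 0.03445 with either). Of the named genes only COX17 and TFB2M had a call to lose, and for the others a kept call means no call. The 1 gained call cannot cover both COX4I1 and NDUFB4. None of the sign changes touched a called gene.

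By the mean of all probe sets of a gene, NDUFV1 was -0.00357 and TFAM -0.211. Without anti-EpCAM pairs 1 and 3, NDUFS1 was 0.0229, COX6A2 -0.00462 and COXFA4L2 0.00416. With 1 pair left out, COX6B2 lay between -0.0158 and 0.128, NDUFA5 between -0.0324 and 0.133, NDUFS1 between -0.0652 and 0.0118, NDUFV2 between -0.052 and 0.0345, COX5A between -0.0392 and 0.00307, COX6A2 between -0.00101 and 0.0318, TFAM between -0.0369 and 0.0962, GABPA between -0.0734 and 0.119, and ESRRA between -0.0973 and 0.00676. The sign changes came without the following pairs: COX6B2 at -0.0158, NDUFV2 at 0.00754, TFAM at -0.0369 and GABPA at -0.0734 (anti-EpCAM pair 2), NDUFA5 at -0.0324, COX5A at 0.00307 and ESRRA at 0.00325 (anti-EpCAM pair 3), COX6A2 at -0.00101 (anti-EpCAM pair 1), NDUFS1 at 0.0118 (untreated pair 1), and NDUFV2 at 0.0345 and ESRRA at 0.00676 (untreated pair 3). With the replicate number as a block, adjusted p was 0.194 for COX17 and 1.00 for TFB2M, and with limma's trend and robust fit 0.125 and 0.114. Without anti-EpCAM pairs 1 and 3 together COX17 was -0.342 (adjusted p = 0.0976). With 6 pairs, an interval of about 0.12 on each side limits what could be seen for a typical member by the probe set used.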
